A study of Homo sapiens with 6 samples.

Results

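Among 10 genes of the Kruppel-like factor (KLF) family, KLF4 fell after EIF5A2 knockdown in SKOV3 cells, while KLF2, KLF5 and KLF6 rose. KLF10 was also lower in some settings but missed the threshold in the main test. The members were KLF2, KLF3, KLF4, KLF5, KLF6, KLF7, KLF9, KLF10, KLF11 and KLF13, a set given by symbol, and each matched 1 of the 58825 Ensembl identifiers in the count table. All 10 passed the filter on low counts and were tested. SKOV3 cells are an established line from a human ovarian carcinoma. Their mRNA was sequenced 48 h after transfection with either a control siRNA (NC, n = 3) or 1 that targets EIF5A2 (si-EIF5A2, n = 3). A single duplex sequence against EIF5A2 and a single cell line were used, so loss of EIF5A2 and any other effect of that duplex cannot be told apart. Nothing in the labels says whether the 3 libraries of a group came from separate cultures, so the tests measure the spread between these libraries, which may be technical.

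KLF proteins are transcription factors that bind GC-rich and CACCC-type DNA through 3 zinc fingers at the C-terminal end, and they are close relatives of the SP factors. Their N-terminal parts differ and recruit different partners. KLF2, KLF4, KLF5, KLF6 and KLF7 mainly activate transcription, KLF3 recruits the corepressor CtBP, and KLF9, KLF10, KLF11 and KLF13 recruit the corepressor Sin3A. KLF4 is a reprogramming factor and a regulator of epithelial differentiation, and the study asked whether it takes part in the effect of EIF5A2 on stemness.

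The libraries held 46900204 to 74142267 estimated counts. Low values fell on multiples of about 3.75 counts, so a sequenced fragment was worth several counts and the depth was nearer to 12506721 to 19771271 fragments. The level of a gene is given as CPM (counts scaled by library size and TMM factor), and levels of different genes are ranked only as CPM per kilobase of annotated exon. EIF5A2, which encodes a translation factor, was at 27.8, 29.8 and 29.9 CPM in NC and at 2.76, 4.04 and 4.27 CPM in si-EIF5A2 replicates 1 to 3. Of 7 markers chosen for the cell line, KRT8 (349 to 659 CPM), KRT18 and PAX8 (57.1 to 122 CPM) were clearly present, whereas EPCAM (1.15 to 1.68 CPM), KRT19 and WT1 were near the lower end. The 7 markers summed to 1136 to 1268 CPM in NC and 757 to 952 CPM in si-EIF5A2. ERBB2, which SKOV3 is known to carry in extra copies, was at 42.1 to 48.6 CPM and ranked 6457 of 16176 genes by NC level per kilobase. That level is not among the highest, and the identity of the cells was not tested further. Among markers of other cells, 1 of 4 leukocyte genes exceeded 1 CPM in any library (CD68, 28.97 to 57.3 CPM), with PTPRC and CD3E at 0 throughout. For endothelium 1 of 4 did (summed level 2.25 to 2.37 CPM in NC and 0.156 to 1.31 CPM in si-EIF5A2), and for fibroblasts 1 of 5 did (0.872 to 1.41 and 0.782 to 3.23 CPM). The part of the marker shifts in the results below was not tested.

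The promoters of the members that changed are shown because KLF and SP proteins bind the GC boxes in them and because the study examined the promoter of KLF4. The stretches are RefSeq sequences (GRCh38.p14) before the start of transcription, up to 250 bases long and ended where an annotated exon of the same gene begins. Capitals mark matches on either strand to GGGCGG (the GC box), CACCC, an E2F-type site (TTTGGCGC, TTTCCCGC, TTTCGCGC or TTTGGCGG), the MEF2 site or the CArG box.
KLF4 (chr9:107489770-107490019, minus strand): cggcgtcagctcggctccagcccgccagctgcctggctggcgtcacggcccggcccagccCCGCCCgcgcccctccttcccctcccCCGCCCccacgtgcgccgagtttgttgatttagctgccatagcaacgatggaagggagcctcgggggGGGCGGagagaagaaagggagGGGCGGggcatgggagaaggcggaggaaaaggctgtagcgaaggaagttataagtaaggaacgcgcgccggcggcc
KLF2 (chr19:16324576-16324816, plus strand): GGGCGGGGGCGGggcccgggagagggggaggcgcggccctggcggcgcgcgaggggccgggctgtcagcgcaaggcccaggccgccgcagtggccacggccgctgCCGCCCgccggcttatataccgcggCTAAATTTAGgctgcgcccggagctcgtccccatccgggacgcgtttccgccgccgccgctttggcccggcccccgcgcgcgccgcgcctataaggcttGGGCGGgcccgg
KLF6 (chr10:3785282-3785459, minus strand): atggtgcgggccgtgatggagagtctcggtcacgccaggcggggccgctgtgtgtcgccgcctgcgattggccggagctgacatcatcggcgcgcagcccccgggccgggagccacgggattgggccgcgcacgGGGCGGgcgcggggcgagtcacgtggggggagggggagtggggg
KLF5 (chr13:73054726-73054975, plus strand): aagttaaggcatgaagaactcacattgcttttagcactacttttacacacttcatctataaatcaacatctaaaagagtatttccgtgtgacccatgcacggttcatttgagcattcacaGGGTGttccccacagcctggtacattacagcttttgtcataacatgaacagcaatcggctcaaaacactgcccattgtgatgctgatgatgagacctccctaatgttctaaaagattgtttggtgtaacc

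The 250 bases before the KLF4 start held 4 GC boxes and 0 matches to the other motifs, with a GC content of 69.2%. In GENCODE this window lies before the first exon of the main KLF4 transcripts and within the first intron of a transcript that starts further upstream. The KLF2 window also held 4 GC boxes, with 2 of them directly next to each other at its 5′ end, and it was the only member window with a MEF2 match. The KLF6 window held 2 GC boxes, 1 of them in the part shown. KLF5 has 2 RefSeq starts. The window of the first, shown above, held no GC box and 1 CACCC match at 40.8% GC, and that of the second, from 73058755 to 73059004 on chromosome 13, held 2 of each. Among 35116 promoter windows of the same length, 42.6% held a GC box, 54.7% a CACCC match, 2.83% an E2F-type match, 0.515% a MEF2 match and 1.16% a CArG match. None of the 13 windows of the 8 members with a sequence held an E2F-type match within these 250 bases, which is near the 2.83% background. The study looked at 2 kb upstream of KLF4, and the E2F1 site it reported there matches none of the E2F-type strings searched. The lack of an E2F-type match therefore cannot speak to that site. A match is a string of letters and not a measured site, and a link between matches and the changes in RNA was not tested. No window of KLF3 or KLF10 was searched.

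**Figure D1:**
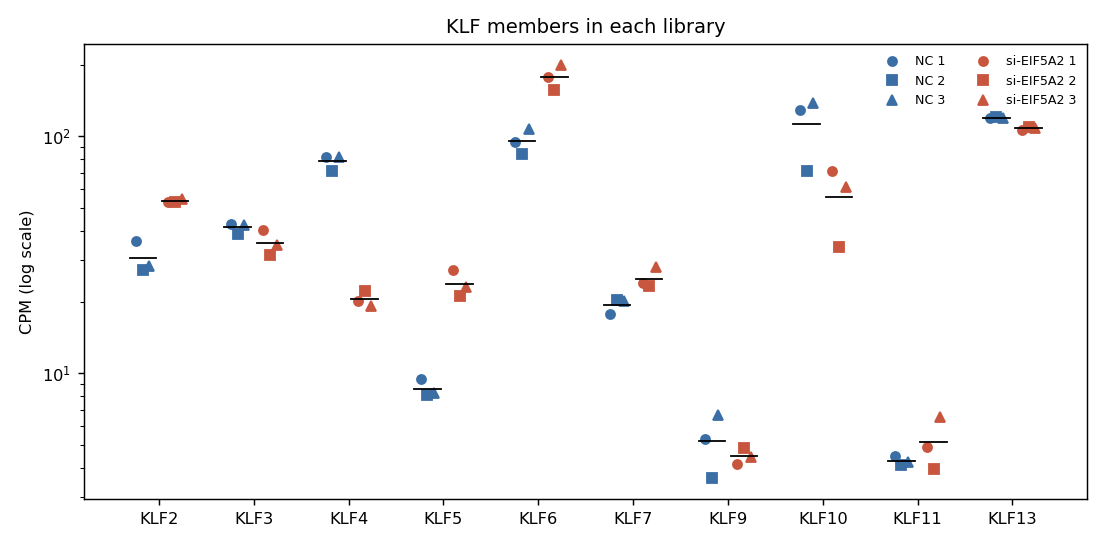
CPM (log axis) of the 10 KLF members in each library, NC in blue and si-EIF5A2 in red, with the marker shape giving the replicate number and the black line the group mean. KLF4 lies at 71.3 to 81.9 CPM in NC and 19.2 to 22.2 CPM in si-EIF5A2, whereas KLF2, KLF5 and KLF6 lie higher in every si-EIF5A2 library.

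KLF4 had 81.8, 71.3 and 81.9 CPM in NC replicates 1 to 3 and 20.1, 22.2 and 19.2 CPM in si-EIF5A2 replicates 1 to 3. The 3 knockdown libraries lay close together and far below the lowest NC library. The log2 fold change was -1.93 (SE, its standard error, 0.10, edgeR adjusted p = 9.16e-06). These values rest on 923 to 5973 estimated counts a library, at about 3.75 counts a fragment, so on fewer fragments. The gene spans 107484852 to 107490482 of chromosome 9 (GRCh38, minus strand), and its exons share no base with an exon of another annotated gene. In bulk libraries, fewer cells that make an RNA and less of it per cell cannot be told apart. Calls needed an adjusted p below 0.05 together with a change of more than 1.5-fold. By this rule 1 of the 10 members was lower, against 13.6% of all genes tested, and 3 were higher, against 11.1%. With 10 members, a count of 1 lower is near that background. The median log2 fold change of the members was 0.06, beside -0.01 over all 16208 genes tested. The members ran from -1.93 to 1.47, so this median lies between members that went opposite ways.

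KLF5, an activator known from proliferating epithelia, had the largest rise. It was at 9.45, 8.07 and 8.27 CPM in NC and at 27.3, 21.2 and 23.2 CPM in si-EIF5A2, with every knockdown library above every control. The mean rose 2.78-fold, and the log2 fold change was 1.47 (SE 0.14, edgeR adjusted p = 1.25e-04). KLF4 and KLF5 are known to act on shared target genes, often with opposite effect. Here their RNA levels moved in opposite directions.

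KLF6, an activator known as an early response gene, was at 94.8, 84.1 and 107 CPM in NC and at 178, 157 and 200.2 CPM in si-EIF5A2. The groups did not overlap, and the log2 fold change was 0.90 (SE 0.12, edgeR adjusted p = 7.06e-04). Replicate 2 was the lowest library in both groups. KLF2, a factor best known from endothelium and lymphocytes and a close relative of KLF4, was at 36.0, 27.3 and 28.3 CPM in NC and at 52.8, 53.0 and 54.4 CPM in si-EIF5A2. The knockdown libraries spread less (0.880 CPM SD) than the controls (4.75 CPM SD). Its log2 fold change was 0.81 (SE 0.12, edgeR adjusted p = 0.00125). KLF7, the remaining activator and a factor known from neurons, had 17.9 to 20.3 CPM in NC and 23.3 to 28.0 CPM in si-EIF5A2. The groups did not overlap and the adjusted p was 0.0359 (edgeR), but the log2 fold change of 0.37 was under the limit for a call. Its edgeR adjusted p ran from 0.0428 to 0.128 with each library left out. With the replicate number as a block it was 0.0666 (edgeR). When any 1 library was left out, the calls of KLF2, KLF4, KLF5 and KLF6 did not change. At an unadjusted p under 0.05 with a fold change over 2, KLF5 was the 1 member higher, so KLF2 and KLF6 were no longer called, and KLF4 and KLF10 were the 2 lower.

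KLF10, a TGF-beta early response gene and a Sin3A-binding repressor, was the member with the widest spread. It was at 129, 71.05 and 138 CPM in NC and at 70.96, 34.0 and 60.9 CPM in si-EIF5A2. Replicate 2 was the lowest in both groups, and the lowest NC library and the highest si-EIF5A2 library almost touched. The log2 fold change was -1.03 (SE 0.38, edgeR adjusted p = 0.0916), which was no call. Without NC replicate 2 it was -1.27 with an adjusted p of 0.0401 (edgeR), and DESeq2 on all libraries gave -1.03 with an adjusted p of 6.39e-04, so the call of KLF10 depended on the setting.

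The other repressors among the members were not called, and the SE of the log2 fold change was 0.24 for KLF9 and 0.21 for KLF11. KLF13, on chromosome 15, was the steadiest member, at 119 to 120.3 CPM in NC and 106 to 109 CPM in si-EIF5A2. The groups of KLF13 did not overlap, yet the log2 fold change was only -0.15 (SE 0.06, edgeR adjusted p = 0.0991). KLF11, a TGF-beta responsive relative of KLF10, had 4.11 to 4.48 CPM in NC and 3.97 to 6.55 CPM in si-EIF5A2. KLF9, known as a glucocorticoid and thyroid hormone target, had 3.61 to 6.70 and 4.15 to 4.83 CPM. KLF3, which acts through CtBP, had 38.7 to 42.8 and 31.4 to 40.1 CPM. The NC and si-EIF5A2 libraries overlapped for KLF3, KLF9 and KLF11, with log2 fold changes of -0.22, -0.21 and 0.27 and adjusted p of 0.168, 0.536 and 0.377 (edgeR). Leaving out 1 library moved them from -0.32 to -0.14 for KLF3, from -0.42 to 2.92e-04 for KLF9 and from 0.05 to 0.42 for KLF11. KLF11 shares 416 exon bases and KLF3 266 with a gene on the opposite strand, and whether strand was used in counting is not given. In all, the groups did not overlap in 4 members that were higher (KLF2, KLF5, KLF6 and KLF7) and in 3 that were lower (KLF4, KLF10 and KLF13), beside 24.7% and 26.5% of all genes tested.

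**Figure D2:**
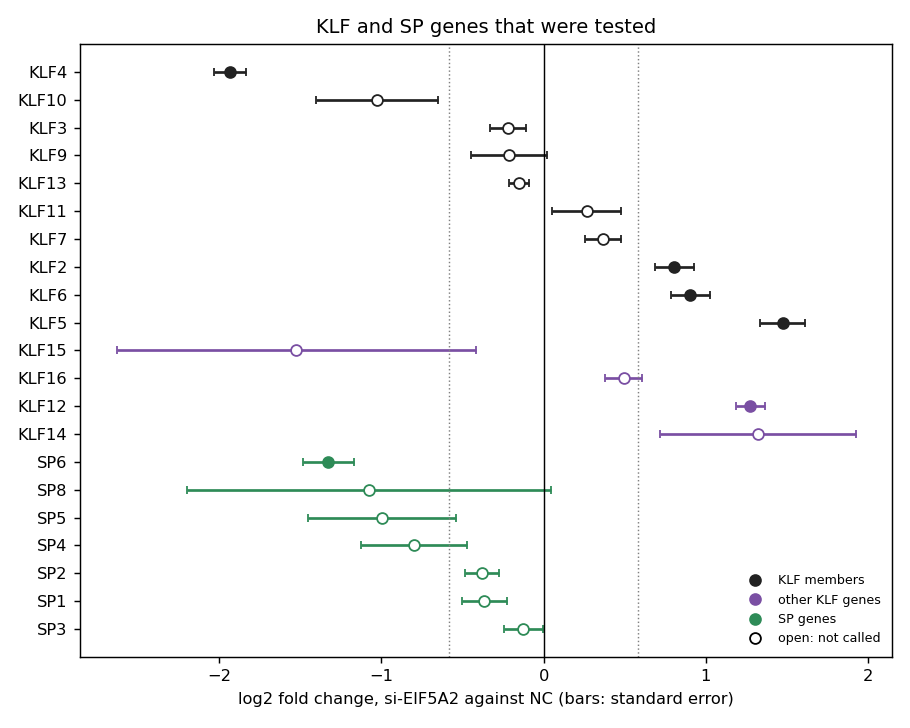
Log2 fold change of si-EIF5A2 against NC with its standard error for the tested KLF members, other KLF genes and SP genes; filled points were called and dotted lines mark a fold change of 1.5. KLF4 (-1.93) is the lowest point of all and KLF5 (1.47) the highest.

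Whether the relatives changed by a different amount than KLF4 was tested on the ratio of each gene to KLF4 within a library. The change of 8 of the 9 relatives differed from that of KLF4 (limma across all genes, adjusted p under 0.05), but so did the change of 86.7% of the 16207 other genes, since few genes fell that far. The noise of KLF4 itself enters every one of these ratios. The difference was largest for KLF5, whose log2 fold change lay 3.40 above that of KLF4 (95% interval 3.02 to 3.78, limma adjusted p = 1.88e-10). KLF6 lay 2.84 above it (95% interval 2.52 to 3.15) and KLF2 lay 2.75 above it (95% interval 2.44 to 3.06). The 5 relatives KLF7, KLF11, KLF13, KLF9 and KLF3 lay 2.30, 2.17, 1.78, 1.76 and 1.71 above it. KLF10 was the exception, with a difference of 0.90 and an interval from -0.19 to 1.98 (limma adjusted p = 0.0974), so a change like that of KLF4 and a clearly smaller one were both within the error. Without si-EIF5A2 replicate 2 the difference for KLF10 was 1.27 and passed the test (limma adjusted p = 8.43e-04).

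The ratio to KLF2 is given by library. Log2 CPM of KLF4 minus that of KLF2 was 1.19, 1.38 and 1.53 under NC, whereas after knockdown it was -1.39, -1.26 and -1.497. This ratio is not corrected for gene length, so its change between groups can be read but not its sign. For 8 relatives the ratios of the groups did not overlap, and the exact permutation test (2-sided) gave p = 0.10, the smallest it can give with 3 libraries a group. For KLF10 the ratios overlapped and the exact permutation p was 0.30.

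**Figure D3:**
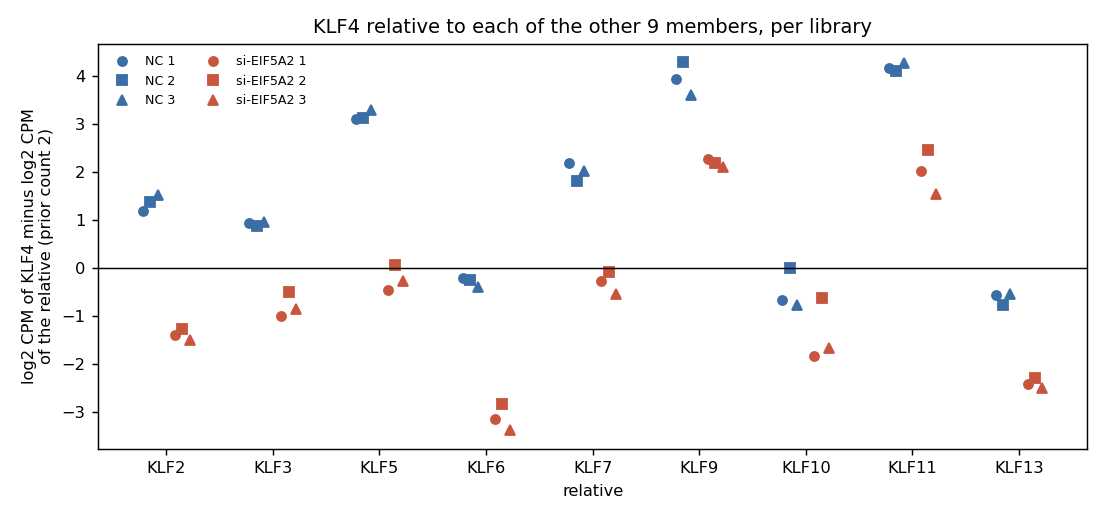
Log2 CPM of KLF4 minus log2 CPM of each relative in each library, NC in blue and si-EIF5A2 in red. KLF10 is the relative whose groups overlap, and for the other 8 every NC library lies above every si-EIF5A2 library.

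Per kilobase of exon, KLF10 and KLF4 were the most abundant members in the NC libraries, at 28.2 ± 9.11 and 21.4 ± 1.68 CPM per kb (SD, n = 3 each). KLF6 (15.5 ± 1.86), KLF2 (15.1 ± 2.36) and KLF13 (12.7 ± 0.0656) followed, then KLF3 (6.55), KLF5 (2.21), KLF7 (2.10), KLF9 (1.005) and KLF11 (0.930). In this order the libraries of KLF10 and KLF4, of KLF6 and KLF2, of KLF5 and KLF7, and of KLF9 and KLF11 overlapped, so those neighbours could not be ranked. KLF10 also overlapped KLF2, with KLF10 at 17.75 CPM per kb in NC replicate 2 and KLF2 at 17.82 in NC replicate 1. After knockdown KLF6 (29.1 ± 3.50) and KLF2 (26.5 ± 0.436) led, again with overlapping libraries, and KLF10 (13.8) and KLF13 (11.4) overlapped below them. KLF5 (6.14 ± 0.807), KLF3 (5.64) and KLF4 (5.604 ± 0.410) were then at about the same level, each overlapping its neighbour. KLF4 was thus clear of KLF6 and all lower members in the NC libraries, and after knockdown it was clear of KLF13 above and of KLF7 below.

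The sum of all 18 KLF genes was 139, 111 and 137 CPM per kb in the NC libraries and 137, 130 and 142 CPM per kb in the si-EIF5A2 libraries, so the groups overlapped while the make-up of the family differed. KLF4 made up 16.1%, 17.6% and 16.4% of this sum in NC and 3.70% to 4.65% in si-EIF5A2. KLF6 went from a mean of 12.1% to 21.2%, KLF2 from 11.8% to 19.4% and KLF5 from 1.73% to 4.50%. KLF16, which is outside the member set, went from 16.7% to 22.1%. Its share thus overlapped that of KLF4 in NC and that of KLF6 in si-EIF5A2. KLF10 made up 16.0% to 25.3% in NC and 6.52% to 12.9% in si-EIF5A2. Shares add up to a whole, so they are not independent of each other.

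**Figure D4:**
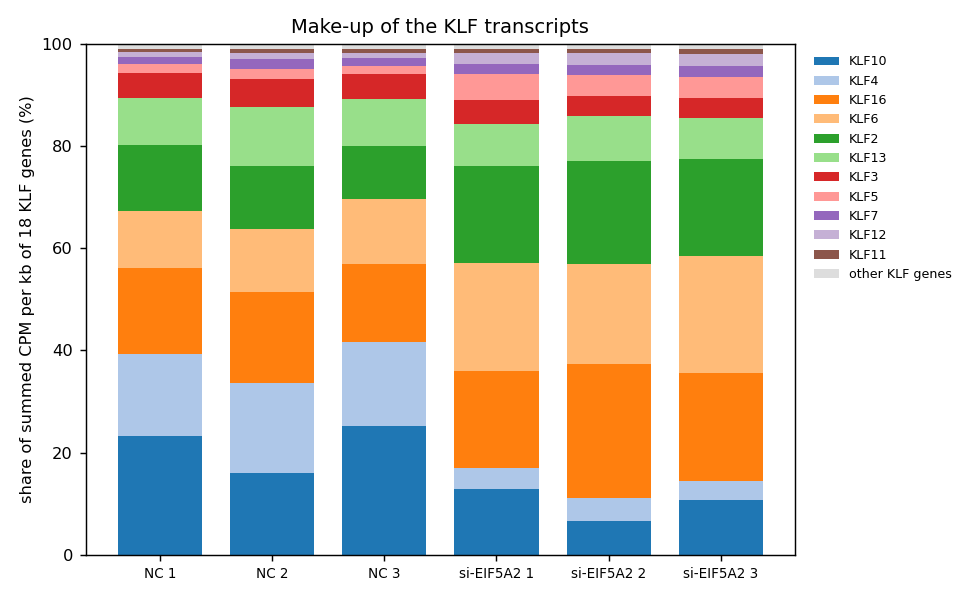
Share of each KLF gene in the summed CPM per kb of 18 KLF genes, 1 bar per library, with KLF9 and the 6 least expressed genes drawn together in grey. The KLF4 segment shrinks from 16.1% to 17.6% in NC to 3.70% to 4.65% in si-EIF5A2, and the KLF2, KLF5 and KLF6 segments are wider in every si-EIF5A2 library.

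The other 8 KLF genes were looked at for comparison. KLF12, a CtBP-binding relative of KLF3, was at 14.07, 14.03 and 14.76 CPM in NC and at 33.7, 33.6 and 36.4 CPM in si-EIF5A2, a log2 fold change of 1.28 (SE 0.09, edgeR adjusted p = 3.30e-05), and it was the only one called. KLF16, another Sin3A-binding member, was at 58.7 to 69.1 CPM in NC and 77.8 to 100.3 CPM in si-EIF5A2, with an adjusted p of 0.0104 (edgeR) with a log2 fold change of 0.50, under the limit for a call. KLF14 and KLF15 were below 1.5 CPM in every library and were not called. KLF1, KLF8, KLF17 and KLF18 had 0 counts in every library, which allows up to 3 fragments, or 0.152 to 0.240 CPM by library, from counting error alone. By cofactor, 3 of the 5 tested activators were higher and 1 lower, 1 of the 2 tested CtBP-binding members was higher, and 0 of the 6 tested Sin3A-binding members were called, beside 11.1% higher and 13.6% lower over all genes. With so few genes in each, these counts do not set the classes apart, and their difference was not tested. Among those 6, KLF10, KLF13 and KLF16 were the ones with an unadjusted p under 0.05 in edgeR, and DESeq2 called KLF10.

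Of the 9 SP genes, 7 were tested, with 0 higher and 1 lower, beside 11.1% and 13.6% of all genes tested. The median log2 fold change of -0.80 was that of SP4, at 0.843 to 2.30 CPM, and SP5 and SP8 were lower still in CPM. SP6, known from epithelial and tooth development, was the one called, and it fell from 19.9 ± 2.44 to 7.95 ± 1.18 CPM (SD, n = 3 each) with a log2 fold change of -1.33 (SE 0.16, edgeR adjusted p = 4.03e-04). The ubiquitous factors SP1 and SP3 were at 108 ± 18.4 and 44.2 ± 6.58 CPM in NC and at 83.9 ± 8.45 and 40.6 ± 1.32 CPM in si-EIF5A2 (SD, n = 3 each), with log2 fold changes of -0.37 and -0.12, and SP2 had -0.38. SP7 and SP9 had 0 counts in every library.

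Genes known to act on KLF proteins or their transcription were read as a list of 15, all tested, of which 2 were higher and 3 lower, shares close to the 11.1% and 13.6% of all genes tested. E2F1, a cell cycle factor that the study examined at the KLF4 promoter, was at 15.5, 15.6 and 12.4 CPM in NC and at 3.95, 5.88 and 4.25 CPM in si-EIF5A2, a log2 fold change of -1.63 (SE 0.19, edgeR adjusted p = 4.05e-04). MAP2K5, the kinase that activates ERK5 (MAPK7), fell from 15.8 ± 0.595 to 6.36 ± 1.02 CPM (SD, n = 3 each). ERK5 and the MEF2 factors downstream of it are known inducers of KLF2 and KLF4. MAPK7 itself (log2 fold change 0.17) and MEF2D (0.10) were not called, nor were MEF2A, MEF2B and MEF2C. Of the ubiquitin ligase genes, BTRC was lower (log2 fold change -1.61), whereas FBXW7 (0.88), whose product is known to mark KLF2 and KLF5 for degradation, and FBXO32 (0.87) were higher. WWP1, another ligase for KLF2 and KLF5, had 43.6 to 45.2 CPM in NC and 37.1 to 42.8 CPM in si-EIF5A2 and was not called.

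Among 12 corepressor and coactivator genes that KLF proteins use, 0 were called in edgeR, with log2 fold changes from -0.52 to 0.53. At an adjusted p under 0.05 without a limit on the fold change, 1 was higher (HDAC1, 0.53) and 2 were lower (SIN3B, -0.39, and KAT2B, -0.52). An unadjusted p under 0.05 was reached by 4 of them (those 3 and HDAC2), and DESeq2 also called 0 of the 12. Without si-EIF5A2 replicate 1 edgeR called 1 higher and 1 lower. CTBP1 and CTBP2, the partners of KLF3 and KLF12, had log2 fold changes of 0.12 and -0.26, and SIN3A, the scaffold bound by the Sin3A-binding members, -0.47.

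A list of 24 genes described elsewhere as targets of KLF factors was written from general knowledge, and 22 were tested, with 4 higher and 6 lower (median log2 fold change -0.13), beside 11.1% higher and 13.6% lower over all genes tested. CDKN1A, the cell cycle inhibitor that KLF4 is known to activate, was at 799 to 986 CPM in NC and 994 to 1068 CPM in si-EIF5A2 and was not called (log2 fold change 0.22, adjusted p = 0.0938, edgeR). Genes that KLF4 is known to repress went both ways. CCNE1, a G1/S cyclin, rose from 8.15 ± 0.109 to 28.1 ± 1.88 CPM, whereas CCNB1, a mitotic cyclin, fell from 235 ± 30.9 to 35.5 ± 6.03 CPM (SD, n = 3 each). CCND1, a G1 cyclin, fell with a log2 fold change of -0.78, and ODC1 (-0.15) was not called. Targets of other members were mixed as well. TXNIP, an arrestin and known KLF6 target, fell by 1.70 on the log2 scale, and NOS3, a KLF2 target in endothelium, fell from 5.18 ± 0.373 to 0.614 ± 0.491 CPM (SD, n = 3 each). CCL5, a KLF13 target in T cells, LGALS3, which KLF3 represses, and SMAD7, which KLF10 represses, rose with log2 fold changes of 0.90, 0.62 and 0.67. The call of SMAD7 was lost in 4 of 6 leave-outs (without NC replicate 1 or 2 or si-EIF5A2 replicate 1 or 2, up to an edgeR adjusted p of 0.0779), and that of LGALS3 without NC replicate 3, where its log2 fold change was 0.57. CDKN1C (-1.37) and BIRC5 (-1.55) completed the called genes. CCND1, CDKN1A and NOS3 share exon bases with a gene on the opposite strand. Among the genes above, so do KLF16, SP9, FBXW7, WWP1, MAPK7, MEF2A, MEF2C, CTBP1, CTBP2, SIN3A and HDAC2. MEF2B shares 1365 exon bases with BORCS8-MEF2B on the same strand. Neither the target genes nor the regulators were tested for a link to any KLF factor in these cells.

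**Figure D5:**
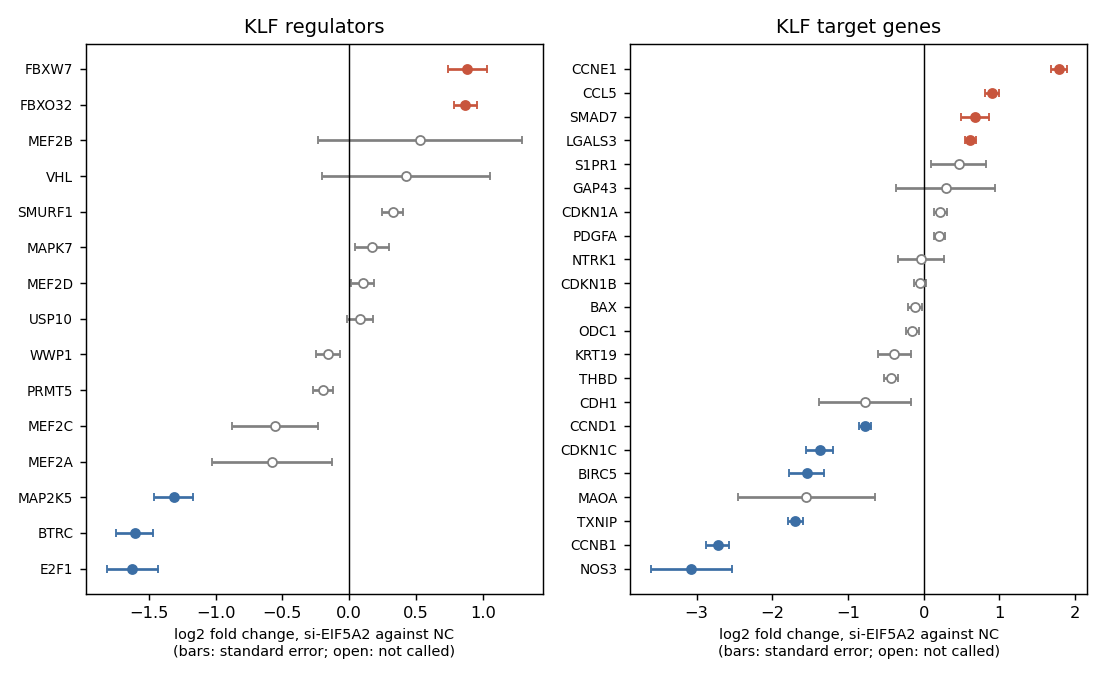
Log2 fold change of si-EIF5A2 against NC with its standard error for the tested genes of the regulator list (left) and the target list (right); red points were called higher, blue points lower and open points not called. E2F1 (-1.63) is the lowest regulator, and CCNE1 (1.78) and NOS3 (-3.07) are the ends of the target list.

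The pattern of KLF4 over the 6 libraries was compared with that of 8843 other genes of at least 10 CPM, by the root mean square difference of log2 CPM after setting each gene to its NC mean. The nearest were CSTB, a cysteine protease inhibitor gene (0.057), CTDSP2, a phosphatase gene (0.065), and PNP, a purine salvage enzyme gene (0.072). CSTB went from 274 to 297 CPM in NC to 69.6 to 78.5 CPM in si-EIF5A2. Nearest to KLF5 were CXCL1, a chemokine gene (0.097), BAZ1A, a chromatin remodeller subunit gene (0.10), and DOT1L, a histone methyltransferase gene (0.10). With 2 groups, this measure reflects mainly the size of the change between them.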

How the data were processed

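StringTie and ballgown were used by the authors, who deposited estimated counts, rounded and not normalized, for each gene. The aligner, human build and annotation are not given in the sources used here, since the submitters' processing notes list mouse builds and Bowtie 0.12.2. All 6 columns were matched to libraries by name, with 0 left over. Of 58825 identifiers, 58552 were in GENCODE release 29 (GRCh38), the source of positions and exon lengths.

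edgeR 4.0.16 (R 4.3.3) was fitted to all genes with the group as the only term: filterByExpr, TMM, robust quasi-likelihood test and Benjamini-Hochberg adjustment over 16208 genes. Standard errors are the log2 fold change over the root of F. Ratios to KLF4 (log2 CPM, prior count 2) were tested with limma 3.58.1. The members and lists were chosen with earlier results of these data known. Genes named were the members, every called list gene, list genes as examples (some under 10 CPM, chosen after their values were seen), and the 3 nearest patterns. Alternatives were DESeq2 1.42.0, other normalizations and filters, the replicate number as a block, other thresholds (among them the unadjusted p and fold change over 2 of the study's methods), counts divided by their step, prior count 0.5 and leaving out each library. On simulated counts with 201 changed genes among 15951 tested, edgeR recovered 89.1%, and 7.73% of its calls were false. Those counts were drawn from the fitted model, and the planted changes were at least 2-fold and left out genes of low level. They were thus larger than the changes of KLF2 and KLF6, and far fewer than the 3992 genes called here. The rates may therefore not hold for these data. Floors cover counting error only. Intervals of the ratios to KLF4 come from limma and reflect the spread between libraries. A gene of the target list is not reported here and was left out of that list's counts.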

Additional observations from a re-analysis of the deposited data

How the results depend on the processing

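Of 432 values recomputed, 412 kept their direction and their side of the threshold, or for a count of genes stayed within 1.5 times of it. Those of KLF2, KLF4, KLF5 and KLF6 did so under all 14 other fits of each. KLF10 passed with DESeq2 (-1.03) and with the replicate number as a block (-1.04), and ran from -1.27 to -0.77 with each library left out. The number of members called lower was then 2 with DESeq2, with the replicate block and at an unadjusted p under 0.05 with a fold change over 2, and 1 to 2 with each library left out. At that last threshold 1 member, 0 regulators and 1 target gene were higher. The difference between KLF10 and KLF4 passed with the replicate block (0.90) and as a difference of edgeR values (0.91), and ran from 0.66 to 1.27 with each library left out. With each library left out KLF9 ran from -0.42 to 2.92e-04, turning sign without NC replicate 3. With no limit on the fold change 2 other KLF genes were higher, 2 SP genes lower, and 1 cofactor gene higher and 2 lower. Leaving out a library gave 0 to 1 cofactor genes in each direction. For DESeq2 and the block the cause was not tested.

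Taken over all genes tested, libraries with the same replicate number did not deviate together (r of -0.024, 0.0052 and -0.0027 for pairs 1 to 3). The replicate block called 3731 genes in place of 3992. Such an r cannot tell whether the numbers pair the libraries for single genes. With the block the SE of KLF10 was 0.10 in place of 0.38, and that of KLF4 was 0.12 in place of 0.10. Pairing was not tested gene by gene. Genes under about 1 CPM, such as KLF14, KLF15 and NOS3 after knockdown, rest on few fragments.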
